A study of Mus musculus with 35 samples.

Results

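The lactate carriers and acid-base transporters of cytotoxic T lymphocytes (CTLs) were examined through 7 named genes, Slc16a1, Slc16a3, Slc16a6, Slc4a2, Slc4a7, Hvcn1 and Bsg, taken from the 48709 genes in each count table. All 7 were among the 13819 genes with enough reads to be tested. The RNA came from mouse CD8+ T cells of OT-I animals, which carry a T-cell receptor transgene specific for ovalbumin. Per the study's methods these cells were primed through CD3 and CD28 and then expanded in murine IL-2, so every group, including the controls, had been exposed to IL-2 beforehand. The 7 groups were CTLs at the start (0 h) and CTLs cultured for 24 h in medium of pH 7.4, 7 or 6.6, at each pH both without IL-2 and with 200 IU/mL IL-2. Each group held 5 biological replicates, giving 35 libraries, and the medium was acidified with hydrochloric acid. These are transcript levels of expanded cells in culture, and no transport or pH inside the cells was measured in these files. Age of the animals is not given in the sources used here.

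Cells that rely on glycolysis export lactate together with a proton through the monocarboxylate carriers MCT1 (Slc16a1) and MCT4 (Slc16a3), which need the glycoprotein basigin (Bsg, CD147) to reach the plasma membrane. MCT7 (Slc16a6) belongs to the same family and carries ketone bodies and taurine. Bicarbonate transporters set the pH inside the cell: the sodium-bicarbonate cotransporter NBCn1 (Slc4a7) brings bicarbonate in and the anion exchanger AE2 (Slc4a2) trades it for chloride, while the voltage-gated channel Hv1 (Hvcn1) lets protons out. Activated T cells are known for high glycolysis and lactate release, so these genes sit where metabolism and an acidic surrounding meet.

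The promoters of the carriers that were both lower at pH 6.6 with IL-2, Slc16a1 and Slc16a3, and of the bicarbonate importer that was higher there, Slc4a7, are shown as the 250 bases before the RefSeq start sites (GRCm38.p6, plus strand, 5′ to 3′). Capitals mark the letters CACGTG, the E-box bound by Myc-family proteins, and ACGTG, the core of the hypoxia response element. The windows were chr3:104638414-104638663 for Slc16a1, chr11:120948817-120949066 for Slc16a3 and chr14:14718534-14718783 for Slc4a7. The RefSeq starts of Slc16a3 and Slc4a7 lie inside the GENCODE genes, which begin at 120948480 and, far upstream, at 14702279. Those of Slc4a2, not shown, lie inside its gene too. Windows before these GENCODE starts were not searched.
Slc16a1: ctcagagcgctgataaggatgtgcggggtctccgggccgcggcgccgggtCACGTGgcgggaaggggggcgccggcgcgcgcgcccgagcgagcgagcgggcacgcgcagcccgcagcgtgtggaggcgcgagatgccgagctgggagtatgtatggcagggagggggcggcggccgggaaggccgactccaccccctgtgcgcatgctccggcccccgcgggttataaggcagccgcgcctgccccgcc
Slc16a3: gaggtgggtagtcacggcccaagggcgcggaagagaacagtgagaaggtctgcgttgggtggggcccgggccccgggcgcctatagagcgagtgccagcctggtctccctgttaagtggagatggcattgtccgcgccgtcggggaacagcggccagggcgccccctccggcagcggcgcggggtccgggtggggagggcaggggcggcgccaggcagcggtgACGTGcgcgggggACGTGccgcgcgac
Slc4a7: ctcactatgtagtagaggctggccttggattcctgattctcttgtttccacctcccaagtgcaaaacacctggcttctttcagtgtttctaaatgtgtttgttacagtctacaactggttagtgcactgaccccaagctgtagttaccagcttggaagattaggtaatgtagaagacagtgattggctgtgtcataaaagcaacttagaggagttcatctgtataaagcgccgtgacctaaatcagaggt
The RefSeq table matched 4 of the 7 genes, with 5 windows of 300 bases (250 before and 50 after a start), and Slc16a6, Hvcn1 and Bsg were not matched. Both strands were searched for CACGTG, for ACGTG, for the STAT5 motif TTCNNNGAA and for the cAMP response element TGACGTCA. Slc16a1 held 1 CACGTG, beginning at position -200 from the start site, and 3 matches to ACGTG, of which those at -200 and -199 lie inside that E-box and the other lies at 20. Slc16a3 held 2 matches to ACGTG, at -27 and -14, and no CACGTG. The Slc4a7 window and both Slc4a2 windows held none of the 4 motifs, and TTCNNNGAA and TGACGTCA were found in no member's window. Among all 32841 promoter windows of this length, 7.15% held CACGTG, 19.6% ACGTG, 8.3% TTCNNNGAA and 1.79% TGACGTCA, and a match is a description of letters and not of a bound site.

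In GENCODE M21 (GRCm38), Slc16a1 lies on chromosome 3 at 104638668-104658462, Slc16a3 on chromosome 11 at 120948480-120960868, Slc16a6 on chromosome 11 at 109450855-109473598, Slc4a2 on chromosome 5 at 24423837-24440950, Slc4a7 on chromosome 14 at 14702279-14799940, Hvcn1 on chromosome 5 at 122206804-122242297 and Bsg on chromosome 10 at 79704491-79711969. Slc16a6 is on the minus strand and the other 6 on the plus strand, all are protein-coding, and the counts cover their exons. Of the exon bases of Hvcn1, 44.2% overlap exons of Tctn1, which is read from the other strand. Such overlap takes in 22.5% of Slc16a6, through Amz2 and Arsg, and 14.9% of Slc4a2, through Fastk and Gm22333. Whether the counting used strand is not given in the sources used here. If it did not, reads in these overlaps would fall in several genes, and such reads were not counted on genes. Of the 50-base windows in each member, at least 99.25% were unique to it.

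The total count on genes ranged from 16721319 to 34033340 per library. The 7 CD8 T-cell markers were detected in every group, with a summed level of 2916 to 5072 CPM, the count scaled to library size. Markers of other cells stayed lower: B-cell markers summed to 1.02 to 6.10 CPM with Ms4a1 and Pax5 at 0 in every library, myeloid markers to 0.37 to 3.99 CPM, CD4 T-cell markers to at most 5.50 CPM and red-cell markers to at most 0.235 CPM. NK-cell markers summed to 8.27 to 95 CPM, nearly all of it from Klrb1c (8.27 to 94.9 CPM). Ncr1 reached at most 0.069 CPM and Klra8 at most 0.042 CPM. In such bulk samples, fewer cells of a type and less RNA per cell cannot be told apart. All tests below are edgeR's quasi-likelihood test with the replicate as a block, p-values were adjusted over all 13819 genes, and a gene was called where the adjusted p was under 0.05. Differences are given as log2 fold change ± SE. The SE was derived from the test, as the absolute log2 fold change over the square root of its F statistic, and the 95% intervals use it.

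The central comparison asked what acidity does to CTLs that have IL-2. With IL-2, 6 of the 7 genes differed at pH 6.6 from pH 7.4, 5 lower and 1 higher, where 76.3% of all tested genes were called (35.4% higher and 40.9% lower). Both lactate carriers and their chaperone Bsg fell steeply at pH 6.6, Slc16a6 fell by less, and Slc4a7 rose.

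Slc16a1, which exports or imports lactate according to the gradient, measured 209, 210.3, 194, 182 and 179.5 CPM in replicates 1 to 5 at pH 7.4 + IL-2. At pH 6.6 + IL-2 the same replicates gave 38.3, 24.1, 23.8, 29.5 and 32.2 CPM. The groups did not overlap, and every replicate was lower in acid. The difference was -2.74 ± 0.12 (adjusted p = 3.12e-19, edgeR), a level 6.66-fold lower. The acidic libraries with IL-2 overlapped those at pH 7.4 without IL-2, which measured 28.9 to 39.2 CPM.

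Slc16a3 encodes MCT4, the carrier typical of highly glycolytic cells. It measured 26.6, 154, 143, 194 and 227 CPM at pH 7.4 + IL-2 and 11.4, 13.1, 10.0, 18.3 and 16.5 CPM at pH 6.6 + IL-2. Replicate 1 stood well below the other 4 at pH 7.4 + IL-2, yet the groups did not overlap. The difference was -3.35 ± 0.38 (adjusted p = 8.11e-09, edgeR), or 10.2-fold lower, and it was -3.63 without replicate 1.

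Bsg, the chaperone both carriers share, measured 221, 315, 315, 382 and 441 CPM at pH 7.4 + IL-2. The acidic cells gave 85.6, 87.9, 89.9, 110.3 and 105 CPM. No acidic library reached the lowest neutral one, and the difference was -1.79 ± 0.11 (adjusted p = 5.35e-16, edgeR), or 3.45-fold lower. Slc16a6 moved less, from 129 to 147 CPM at pH 7.4 + IL-2 down to 96.2 to 122 CPM, with a difference of -0.41 ± 0.10 (adjusted p = 0.000543, edgeR). Its groups did not overlap either.

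Slc4a7, the bicarbonate importer, was the member that rose. It measured 57.7, 55.5, 46.2, 43.9 and 35.8 CPM at pH 7.4 + IL-2 and 74.9, 88.0, 82.0, 73.6 and 80.0 CPM at pH 6.6 + IL-2. Every acidic library exceeded every neutral one, with a difference of 0.74 ± 0.16 (adjusted p = 9.14e-05, edgeR). Slc4a2, the anion exchanger, went from 59.1 to 76.8 CPM to 53.9 to 66.5 CPM in overlapping groups. Its difference of -0.24 ± 0.10 (adjusted p = 0.0247, edgeR) lost the call under DESeq2 (adjusted p = 0.0914), RLE scaling (0.0874) and a strict filter of at least 10 counts in every library (0.0624), and without replicates 2, 3 or 5 (0.0565 to 0.287). Fastk, which overlaps Slc4a2, was lower too (-0.42 ± 0.10), and its part in the value was not tested. Hvcn1 did not pass the test with IL-2 (0.05, 95% interval -0.17 to 0.28, adjusted p = 0.668, edgeR).

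**Figure D1:**
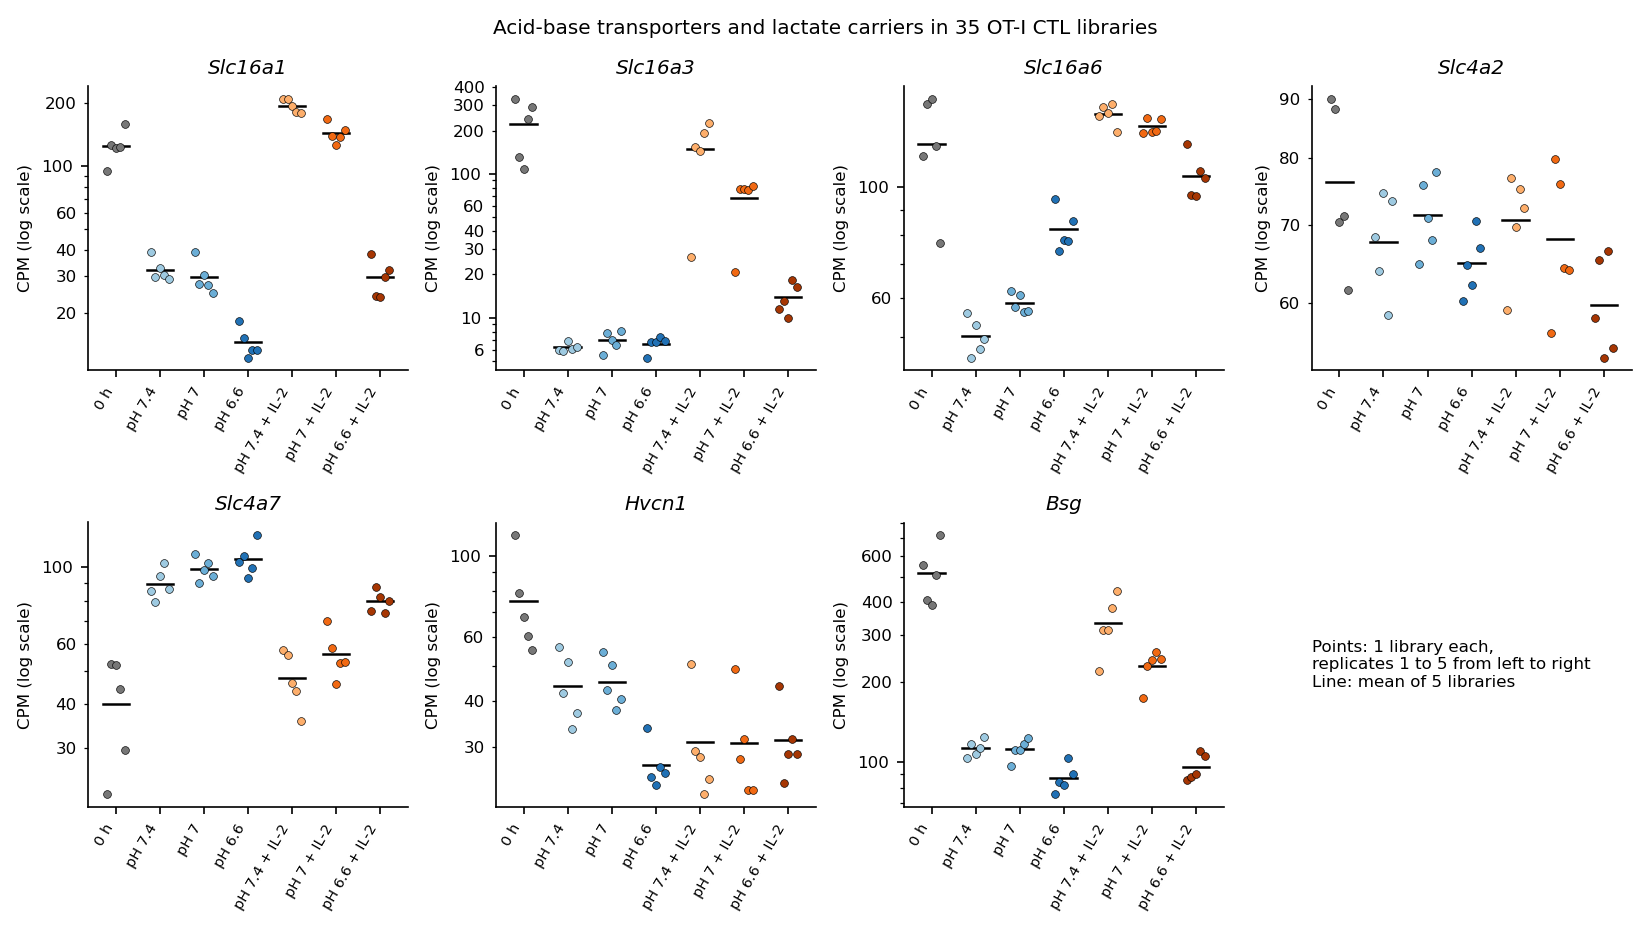
CPM of the 7 genes in each library on log axes, by group, with replicates 1 to 5 from left to right and a line at the mean of 5 libraries. Slc16a1 and Slc16a3 are high at 0 h and at pH 7.4 and pH 7 with IL-2 and low in the other groups, with replicate 1 of Slc16a3 at 26.6 and 20.7 CPM in those IL-2 groups, while Slc4a7 runs the other way.

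Without IL-2 the same change of pH gave another picture. Of the 7 genes, 4 differed at pH 6.6 from pH 7.4, where 67.0% of all tested genes were called (31.6% higher and 35.4% lower): Slc16a1, Hvcn1 and Bsg were lower and Slc16a6 was higher. Slc16a1 measured 39.2, 29.6, 32.7, 30.3 and 28.9 CPM at pH 7.4 and 18.3, 15.2, 12.2, 13.3 and 13.3 CPM at pH 6.6. These groups did not overlap, with a difference of -1.15 ± 0.12 (adjusted p = 8.77e-10, edgeR).

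Slc16a3 was already near its lowest level, at 5.89 to 6.95 CPM at pH 7.4 and 5.30 to 7.37 CPM at pH 6.6. The groups overlapped and the difference of 0.07 did not pass the test (95% interval -0.77 to 0.91, adjusted p = 0.889, edgeR). Bsg went from 104 to 124 CPM down to 75.6 to 103 CPM, a difference of -0.38 ± 0.11 (adjusted p = 0.00211, edgeR). Here Slc16a6 turned the other way: it measured 56.0, 45.5, 52.9, 47.4 and 49.5 CPM at pH 7.4 and 94.8, 74.4, 78.5, 78.1 and 85.5 CPM at pH 6.6. Each acidic library lay above each neutral one, and the difference was 0.71 ± 0.10 (adjusted p = 4.51e-07, edgeR).

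Hvcn1, the proton channel, measured 56.3, 42.2, 51.1, 33.5 and 37.0 CPM at pH 7.4 without IL-2 and 33.8, 24.8, 23.6, 26.5 and 25.4 CPM at pH 6.6. The lowest neutral library lay just under the highest acidic one, but each of the 5 replicates was lower in acid, with a difference of -0.70 ± 0.11 (adjusted p = 1.76e-06, edgeR). Tctn1, whose exons overlap those of Hvcn1, rose in the same comparison from 29.2 to 44.0 CPM (0.59 ± 0.10) and with IL-2 from 8.76 to 33.5 CPM (1.94 ± 0.11), and its part in the values of Hvcn1 was not tested. Hvcn1 is otherwise best known from B cells and phagocytes, whose lists hold 5 and 8 markers. Without IL-2 the B-cell markers summed to 1.02 to 1.94 CPM at pH 7.4 and 1.14 to 1.64 CPM at pH 6.6, and the myeloid markers to 1.71 to 2.95 CPM and 0.715 to 1.8 CPM, with S100a8 and S100a9 at 0 in both groups. The part of the myeloid markers in the values of Hvcn1 was not tested. Slc4a2 (-0.06, adjusted p = 0.570) and Slc4a7 (0.24, adjusted p = 0.178) did not pass edgeR's test.

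**Figure D2:**
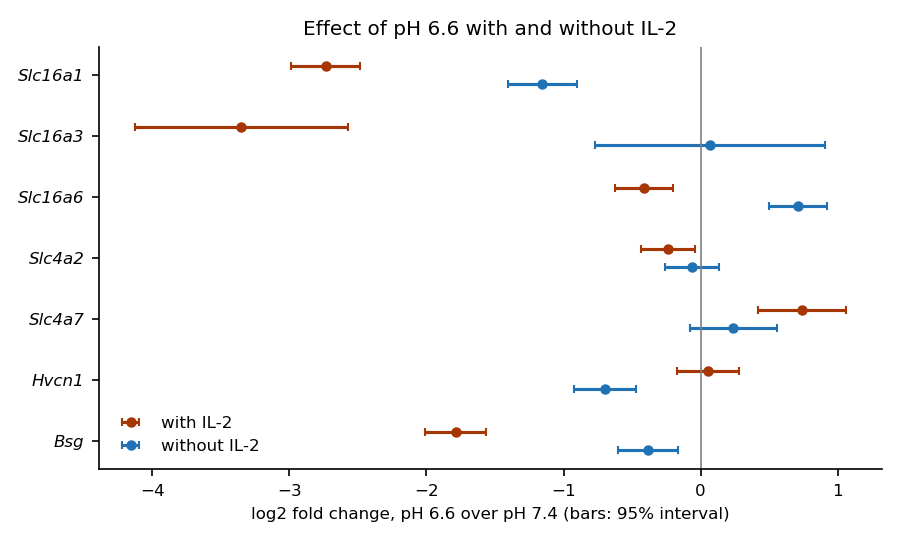
Log2 fold change of pH 6.6 over pH 7.4 for the 7 genes, with IL-2 (brown) and without (blue), each from 5 replicates per group, with bars for the 95% interval. Slc16a3 lies at -3.35 with IL-2 and at 0.07 without, and Slc16a6 lies on opposite sides of 0.

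Whether the effect of pH 6.6 depended on IL-2 was tested by the interaction term, the log2 fold change with IL-2 minus that without. It passed for 6 of the 7 genes, where 67.0% of all tested genes were called (34.3% positive and 32.8% negative). The term was negative for Slc16a3 (-3.42 ± 0.55, adjusted p = 4.49e-06, edgeR), for Slc16a1 (-1.58 ± 0.17, adjusted p = 8.23e-10), for Bsg (-1.40 ± 0.15, adjusted p = 8.70e-10) and for Slc16a6 (-1.13 ± 0.15, adjusted p = 4.33e-08). It was positive for Hvcn1 (0.75 ± 0.16, adjusted p = 9.09e-05) and Slc4a7 (0.50 ± 0.22, adjusted p = 0.0436, edgeR). The Slc4a7 call was lost without replicates 2, 3, 4 or 5 in turn, with adjusted p between 0.0517 and 0.167, and with no filter on low counts (0.126). Slc4a2 did not pass (-0.18 ± 0.14, adjusted p = 0.254).

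The milder step to pH 7 touched fewer of these genes. With IL-2, 3 of the 7 were lower at pH 7 than at pH 7.4, where 19% of all tested genes were called (9.15% higher and 9.83% lower). Slc16a1 measured 169, 139.5, 127, 138 and 149 CPM at pH 7 + IL-2, all below the lowest library at pH 7.4 + IL-2, with a difference of -0.44 ± 0.11 (adjusted p = 0.00624, edgeR). Bsg measured 174, 230.1, 242, 259.8 and 245 CPM, with a difference of -0.52 ± 0.11 (adjusted p = 0.000726, edgeR). Slc16a3 measured 20.7, 78.7, 78.5, 77.2 and 82.2 CPM, with a difference of -1.10 ± 0.34 (adjusted p = 0.0240, edgeR). Within each of the 5 replicates Slc16a3 was lower at pH 7, although the groups overlapped through replicate 1. Leaving out replicate 2 or replicate 3 left 1 call of the 3, since Slc16a1 and Slc16a3 then missed the threshold (adjusted p between 0.0566 and 0.0885), and Slc16a3 also missed it without replicate 4 (0.111) or replicate 5 (0.117) and with no filter on low counts (0.0579).

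The step from pH 7 to pH 6.6 with IL-2 gave larger differences. There 5 of the 7 genes differed, where 72.4% of all tested genes were called (32.5% higher and 40.0% lower): Slc16a1 (-2.29 ± 0.12), Slc16a3 (-2.25 ± 0.37), Bsg (-1.26 ± 0.11) and Slc16a6 (-0.33 ± 0.10) were lower and Slc4a7 (0.51 ± 0.16) was higher. The call of Slc16a6 was lost without replicate 3 (-0.23, adjusted p = 0.0833, edgeR). Without IL-2, none of the 7 genes was called between pH 7 and pH 7.4 by edgeR or by DESeq2, where 1.68% of all tested genes were called (1.36% higher and 0.318% lower). In that comparison 1 gene, Slc16a6, had an unadjusted p under 0.05 (0.22 ± 0.10, adjusted p = 0.574, edgeR). Its 5 libraries at pH 7 all lay above those at pH 7.4, and the fit to the compared groups alone called it (0.21, adjusted p = 0.0109, edgeR). From pH 7 to pH 6.6 without IL-2, 4 of the 7 differed, where 66.6% of all tested genes were called (30.9% higher and 35.7% lower): Slc16a1 (-1.04 ± 0.12), Hvcn1 (-0.75 ± 0.11) and Bsg (-0.36 ± 0.11) were lower and Slc16a6 (0.49 ± 0.10) was higher.

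IL-2 is a growth factor for CTLs, and its effect on the same genes was measured at each pH. At pH 7.4, 6 of the 7 genes differed with IL-2, 4 higher and 2 lower, where 80.4% of all tested genes were called (39.3% higher and 41.1% lower). Slc16a3 rose from a mean of 6.23 ± 0.43 to 149 ± 75.9 CPM (SD, n = 5), a difference of 4.46 ± 0.40. Slc16a1 rose by 2.61 ± 0.12, Bsg by 1.54 ± 0.11 and Slc16a6 by 1.48 ± 0.11. Slc4a7 fell from 89.8 ± 9.2 to 47.8 ± 9.0 CPM (-0.92 ± 0.16), and Hvcn1 fell from 44.0 ± 9.5 to 30.9 ± 11.3 CPM (-0.54 ± 0.11). Slc4a2 did not pass (0.06, 95% interval -0.14 to 0.25).

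At pH 7 the calls were the same 4 genes higher and 2 lower, where 77.2% of all tested genes were called (37.6% higher and 39.5% lower), with 2.28 ± 0.12 for Slc16a1, 3.22 ± 0.39 for Slc16a3, 1.18 ± 0.10 for Slc16a6 and 1.04 ± 0.11 for Bsg. At pH 6.6 IL-2 changed 2 of the 7, where 23.7% of all tested genes were called (13.2% higher and 10.6% lower): Slc16a1 rose by 1.03 ± 0.12 (adjusted p = 1.20e-07, edgeR) and Slc16a6 by 0.36 ± 0.10 (adjusted p = 0.0110). All 5 libraries of Slc16a3 at pH 6.6 + IL-2 lay above those at pH 6.6 without it, but the difference of 1.04 ± 0.39 did not pass (adjusted p = 0.0526, edgeR). It passed under DESeq2 (adjusted p = 0.0155), with the strict filter (0.0383) and in the fit to the compared groups alone (1.35e-07). Without replicate 1 it passed too, with a difference of 1.03 (adjusted p = 0.000381), and Slc4a7 passed as well (-0.40, adjusted p = 0.0374), which makes 4 calls. Without replicate 4 the count was 1, since Slc16a6 missed the threshold. In the main fit all 5 libraries of Slc4a7 with IL-2 lay below those without it, but its difference of -0.41 ± 0.16 did not pass (adjusted p = 0.0525, edgeR). Bsg gave 0.14 ± 0.11 (adjusted p = 0.373), with overlapping groups, although each of the 5 replicates was higher with IL-2.

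**Figure D3:**
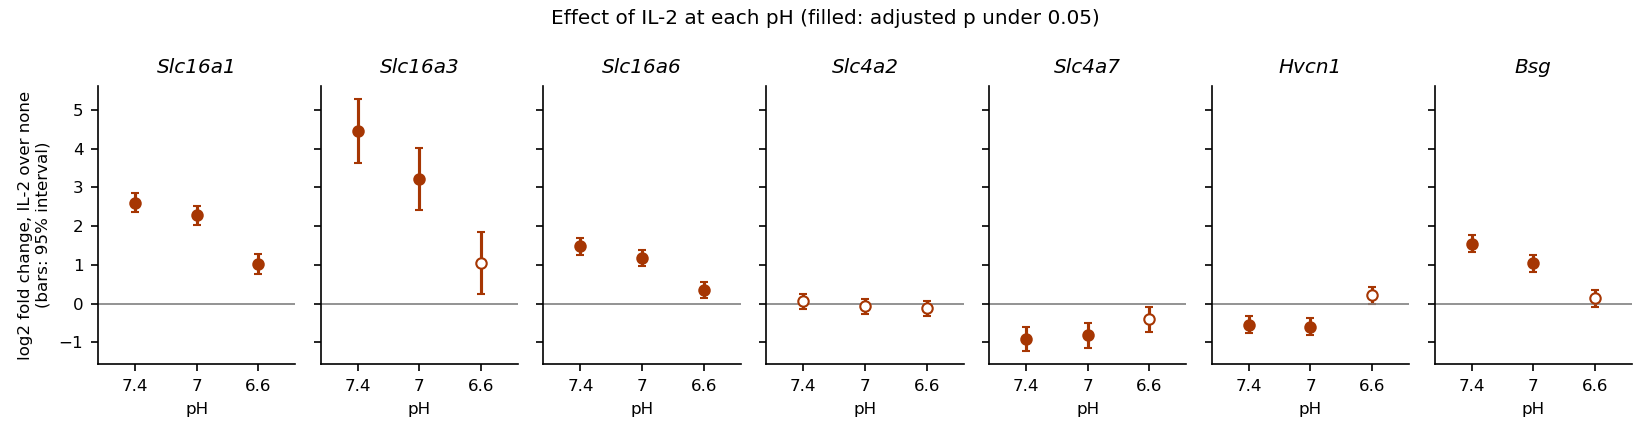
Log2 fold change of IL-2 over no IL-2 at pH 7.4, 7 and 6.6 for each gene, from 5 replicates per group, with bars for the 95% interval and filled points for adjusted p under 0.05. The value for Slc16a3 goes from 4.46 to 3.22 to 1.04 and that for Bsg from 1.54 to 1.04 to 0.14, while Slc4a2 stays near 0.

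Against the cells at 0 h, which came from culture with IL-2, cells kept for 24 h at pH 7.4 + IL-2 differed in 3 of the 7 genes, where 59.9% of all tested genes were called (29% higher and 30.9% lower): Slc16a1 was higher (0.62 ± 0.11) and Bsg (-0.64 ± 0.11) and Hvcn1 (-1.30 ± 0.11) were lower. Cells at pH 6.6 + IL-2 differed in 6, where 68.5% of all tested genes were called (30.5% higher and 38.0% lower), with Slc4a7 higher (1.00 ± 0.16) and 5 lower, among them Slc16a3 (-4.05 ± 0.39), Bsg (-2.42 ± 0.11) and Slc16a1 (-2.12 ± 0.12). Cells at pH 7.4 without IL-2 also differed in 6, where 75.2% of all tested genes were called (36.9% higher and 38.3% lower), with Slc4a7 higher (1.17 ± 0.16) and Slc16a3 (-5.17 ± 0.41), Bsg (-2.18 ± 0.11) and Slc16a1 (-1.99 ± 0.12) among the 5 lower. At pH 6.6 without IL-2 all 7 differed, 1 higher and 6 lower, where 75.1% of all tested genes were called (34.8% higher and 40.3% lower). Among the 6 lower, Slc16a3 differed by -5.10 ± 0.41 and Slc16a1 by -3.14 ± 0.13, and the call of Slc4a2 (-0.23 ± 0.10, adjusted p = 0.0301, edgeR) was lost under RLE scaling, DESeq2, the strict filter and the fit to the compared groups alone, and without replicates 1, 2 or 3. These comparisons share the 0 h libraries, in which Slc16a3 ranged from 108 to 332 CPM and Hvcn1 from 55.3 to 114 CPM.

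Levels of different genes can be compared only per length, so CPM was divided by the length of the merged exons in kilobases (kb). At pH 7.4 + IL-2 the order of the levels was Bsg (184 ± 45.5 CPM per kb, SD, n = 5), Slc16a1 (44.0 ± 3.3), Slc16a6 (28.7 ± 1.4), Slc16a3 (27.98 ± 14.3), Hvcn1 (8.67 ± 3.17), Slc4a2 (8.49 ± 0.84) and Slc4a7 (3.14 ± 0.59). In that order Slc16a6 and Slc16a3, Slc16a3 and Hvcn1, and Hvcn1 and Slc4a2 overlapped between libraries. At pH 6.6 + IL-2 Bsg was still first (52.8 ± 6.1 CPM per kb), but Slc16a6 (21.6 ± 2.2) now stood above Hvcn1 (8.78 ± 2.12), Slc4a2 (7.18 ± 0.70), Slc16a1 (6.68 ± 1.36), Slc4a7 (5.24 ± 0.38) and Slc16a3 (2.61 ± 0.65). The neighbours from Hvcn1 to Slc4a7 overlapped there, while Slc16a6 lay clear of both its neighbours and Slc16a3 lay below all libraries of Slc4a7. Of the 3 carriers, Slc16a6 thus had the highest level per kb at pH 6.6 + IL-2 and Slc16a1 the highest at pH 7.4 + IL-2, also with the length of the longest transcript. The order of the others depended on that choice of length: with the longest transcript, Slc4a2 measured 14.01 CPM per kb at pH 6.6 + IL-2, above Hvcn1 (11.2), Slc4a7 (9.80) and Slc16a1 (6.68).

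Without IL-2 at pH 7.4 the level per kb was 62.3 ± 4.5 for Bsg, 12.4 ± 2.7 for Hvcn1, 10.3 ± 0.86 for Slc16a6, 8.15 ± 0.80 for Slc4a2, 7.26 ± 0.95 for Slc16a1, 5.90 ± 0.61 for Slc4a7 and 1.17 ± 0.08 for Slc16a3. Slc16a3 was the lowest of the 7 in each library of that group. With the longest transcript Slc4a2 (15.9 CPM per kb) and Hvcn1 (15.7) came next to Bsg, followed by Slc16a6 (11.9) and Slc4a7 (11.04), with Slc16a1 at 7.26. The log2 ratio of Slc16a3 to Slc16a1 per kb was 0.43 ± 0.79 at 0 h (SD, n = 5), -0.95 ± 1.32 at pH 7.4 + IL-2, -1.51 ± 1.00 at pH 7 + IL-2 and -1.37 ± 0.41 at pH 6.6 + IL-2. Without IL-2 it was -2.62 ± 0.21 at pH 7.4, -2.35 ± 0.46 at pH 7 and -1.38 ± 0.40 at pH 6.6. With IL-2 the 3 pH groups overlapped in this ratio, and the overlap with pH 7.4 came from replicate 1 alone (-3.24). Without that replicate the mean at pH 7.4 + IL-2 was -0.38, and its other 4 libraries (-0.71 to 0.07) lay above those at pH 7 + IL-2 (-1.12 to -0.96) and pH 6.6 + IL-2 (-1.51 to -0.96). Without IL-2 the libraries at pH 6.6 (-2.05 to -1.12) lay above those at pH 7.4 (-2.99 to -2.46).

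Basigin has 2 relatives that can also escort monocarboxylate carriers, embigin (Emb) and neuroplastin (Nptn), and in acid Emb moved against Bsg while Nptn was lower, as Bsg was. Emb measured 309 to 396 CPM at pH 7.4 + IL-2 and 827 to 1299 CPM at pH 6.6 + IL-2, a difference of 1.46 ± 0.10 (adjusted p = 4.68e-15, edgeR). Without IL-2 it went from 522 to 785 CPM at pH 7.4 to 1249 to 1533 CPM at pH 6.6 (1.04 ± 0.10, adjusted p = 4.28e-11). The groups did not overlap in either case. Nptn was lower in acid both with IL-2 (-0.20 ± 0.09, adjusted p = 0.0340) and without (-0.56 ± 0.09, adjusted p = 8.16e-07, edgeR). With IL-2 its groups overlapped, at 167.4 to 220.8 CPM at pH 7.4 and 146.8 to 195.5 CPM at pH 6.6. Whether this small difference keeps its call under other processing was not tested. IL-2 at pH 7.4 lowered Emb (-0.90 ± 0.10) and Nptn (-0.60), against 1.54 ± 0.11 for Bsg. The interaction term of pH 6.6 and IL-2 was also positive for Nptn (0.36) and negative for Bsg (-1.40).

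**Figure D4:**
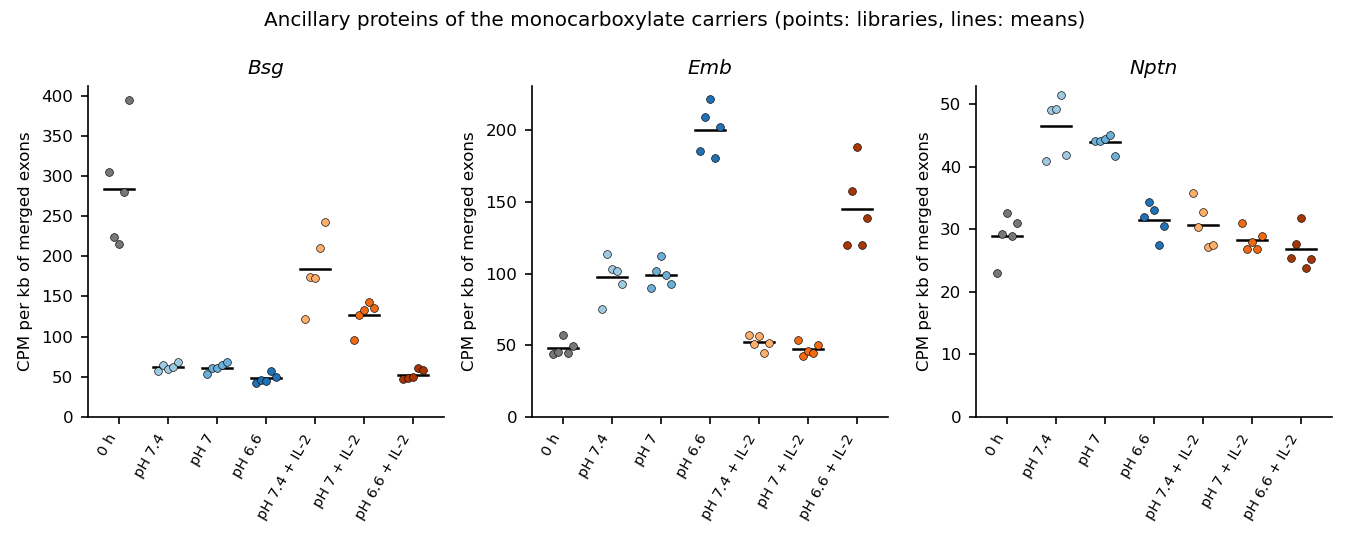
CPM per kb of merged exons for Bsg, Emb and Nptn in each library by group, with lines at the mean of 5 libraries and axes from 0. Bsg goes from 184 at pH 7.4 + IL-2 to 52.8 at pH 6.6 + IL-2, whereas Emb is highest in the 2 groups at pH 6.6.

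As a description, the genes whose log2 CPM tracked each member most closely over the 35 libraries were listed, among genes whose mean log2 CPM was 3 or more. The libraries fall into groups that share pH and IL-2, so the correlation coefficients mostly rank genes by how alike they differ between groups. Slc16a3 was followed by Pgam1 (r = 0.991), Tpi1 (0.988) and Ldha (0.985), the last of which encodes the lactate dehydrogenase subunit that makes lactate and the other 2 glycolytic enzymes. Bsg was followed by Prelid1 (0.984), Pfkl (0.983), a subunit of the glycolytic enzyme phosphofructokinase, and Cisd3 (0.976). Slc16a1 was followed by Sdad1 (0.990), Heatr3 (0.990) and Rwdd4a (0.990). Slc16a6 was followed by Chek1 (0.949) and Uhrf1 (0.949), Slc4a7 by Dip2b (0.954), Arfgef1 (0.950) and Setd2 (0.949), Hvcn1 by Soat2 (0.840), Sfn (0.818) and Tbkbp1 (0.806), and Slc4a2 by Flywch1 (0.827), Dctn1 (0.823) and Akna (0.811). Among the members themselves r was 0.955 for Slc16a3 with Bsg, 0.864 for Slc16a1 with Bsg and -0.939 for Slc16a3 with Slc4a7.

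The wider set of acid-base and lactate genes held 86 genes, of which 46 had enough reads to be tested, and it includes the 7 members. At pH 6.6 against pH 7.4 with IL-2, 13 were higher and 24 lower, with a median log2 fold change of -0.31, beside -0.07 over all tested genes. The share called, 80.4%, was near the 76.3% over all tested genes. Of the 7 tested monocarboxylate carriers, 6 were lower, among them the members Slc16a1, Slc16a3 and Slc16a6, and 1 was higher. Over all tested genes 40.9% were lower and 35.4% higher. Among the genes that are no members and had a mean log2 CPM of 1 or more, lactate dehydrogenase Ldha fell from a mean of 2493 to 438 CPM (-2.48 ± 0.13), and the membrane-bound carbonic anhydrase Car12 from 45.1 to 5.54 CPM (-3.04 ± 0.19). Slc26a6 (-1.83 ± 0.14), an anion exchanger, and Slc4a4 (-1.80 ± 0.21), a sodium-bicarbonate cotransporter, were lower as well. The largest rises among them, besides that of Emb, were those of Slc26a11 (2.82 ± 0.13), an anion transporter, Chp1 (1.52 ± 0.06), a cofactor of sodium-proton exchangers, and Slc4a11 (1.26 ± 0.12).

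Without IL-2, 12 of the 46 were higher and 22 lower at pH 6.6, with a median of -0.19, beside -0.03 over all tested genes, and 73.9% were called against 67.0%. Of the 7 tested monocarboxylate carriers 3 were lower and 2 higher here, where 35.4% of all tested genes were lower and 31.6% higher. Slc16a10 (2.22 ± 0.14), a carrier of aromatic amino acids, Tesc (1.64 ± 0.24), Slc4a11 (1.34 ± 0.12) and Chp1 (1.08 ± 0.06) were the most raised. Slc26a6 (-2.13 ± 0.15), Car12 (-1.73 ± 0.31), Slc26a11 (-1.34 ± 0.11) and Slc16a13 (-1.24 ± 0.19) were the most lowered. Ldha did not pass (0.15 ± 0.12, adjusted p = 0.262, edgeR), at means of 285 and 318 CPM. IL-2 at pH 7.4 made 20 of the 46 higher and 16 lower, 78.3% against 80.4% over all tested genes, with a median of -0.04 in the list and over all tested genes. Car12 (4.61 ± 0.21), Slc4a4 (4.34 ± 0.25), Slc9a5 (3.66 ± 0.19), a sodium-proton exchanger, and Ldha (3.10 ± 0.13) rose most and Slc26a11 (-5.02 ± 0.14) fell most.

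For the interaction of pH 6.6 and IL-2, 11 of the 46 terms were positive and 13 negative among those that passed, 52.2% against 67.0% over all tested genes, with a median of 0.04 in the list and over all tested genes. Slc26a11 (4.17 ± 0.18) had the most positive term, since acid raised it with IL-2 and lowered it without. Slc16a10 (-3.10), Ldha (-2.64 ± 0.17), Slc4a4 (-2.37 ± 0.37) and Slc9a5 (-2.19) had the most negative terms after Slc16a3. At pH 7 with IL-2, 4 of the 46 were higher and 6 lower than at pH 7.4, 21.7% against 19% over all tested genes, a count that went to 4 in all without replicate 2, 5 without replicate 3 and 6 without replicate 5.

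**Figure D5:**
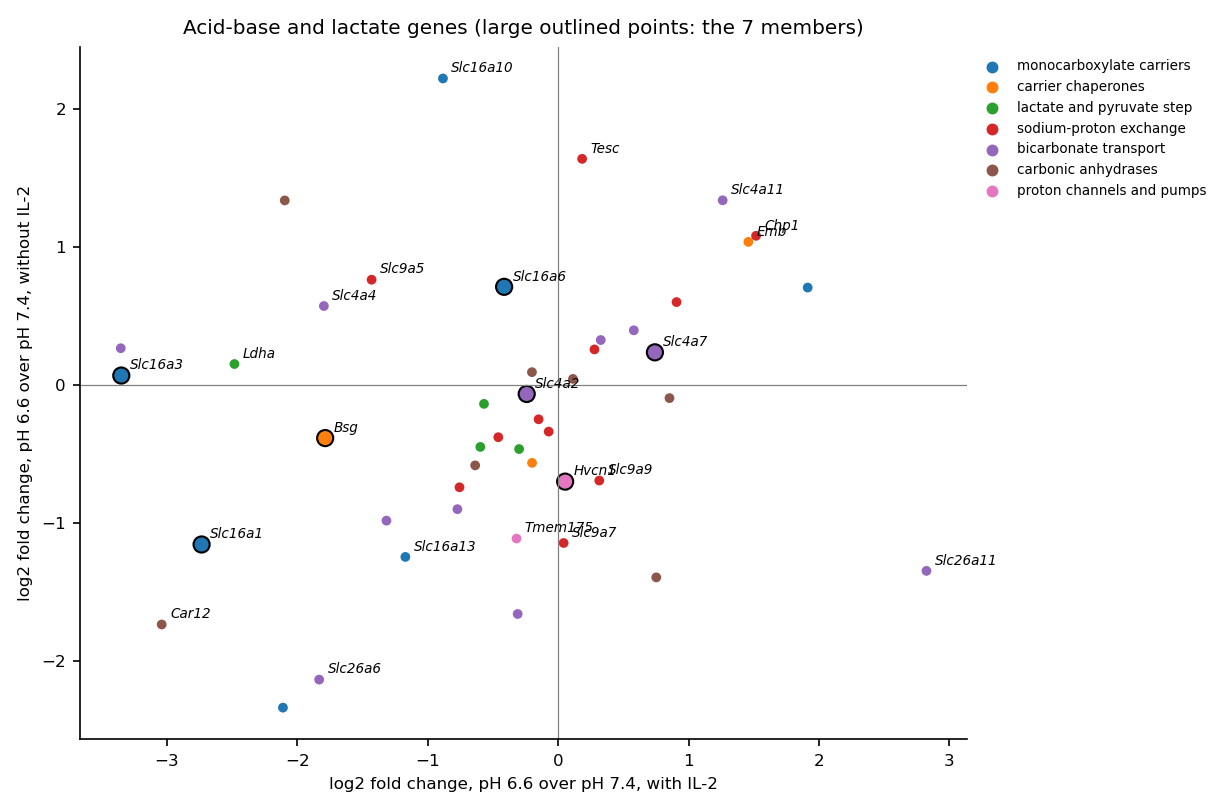
Log2 fold change of pH 6.6 over pH 7.4 for the 46 tested acid-base and lactate genes, with IL-2 on the horizontal axis and without on the vertical axis, coloured by gene class. Slc16a3 and Ldha lie far left near 0 on the vertical axis, Slc26a11 lies at 2.82 and -1.34, and Emb and Chp1 lie at the upper right.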

How the data were processed

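The authors deposited 1 table of raw read counts per Ensembl gene for each of 35 libraries, without normalization. Libraries were Illumina TruSeq stranded mRNA, read single-end on a HiSeq instrument after dead cells were removed on Ficoll. The submitters' processing notes name cutadapt 1.8, STAR 2.5.2b, HTSeq 0.6.1 and the build GRCm38. The annotation release and strand setting are not given in the sources used here. The closing rows that name no gene were left out; reads aligned to several places (median 37.1% of each table) were not counted on genes, nor those outside genes (7.42%) or in several genes (0.922%).

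Counts were scaled by TMM in edgeR 4.0.16 (R 4.3.3). Genes passing filterByExpr with a minimum count of 10 were fitted together in all 35 libraries by the robust quasi-likelihood model, with Benjamini-Hochberg adjustment. The replicate number entered as a block because the series states that each of 5 biological replicates was cultured in every condition, and 95 of 105 same-numbered pairs deviated together (r over 0.1, median 0.27, against -0.07 for other pairs). Among 70 pairs of libraries within groups, chi-square per degree of freedom was at least 6.66, so none was a repeat. Outlying libraries were looked for in each group with Dixon's ratio. The scripts were tested on simulated counts of 13819 genes, with changes at pH 6.6 + IL-2 only in the genes counted next. No other difference between groups or replicates was put in. Against pH 7.4 + IL-2 they recovered 33 of 67 changes of 0.5 on the log2 scale, 51 of 67 of 1 and 62 of 66 of 2. There were 3 false calls. The measured comparison called 76.3% of all tested genes, so the simulated counts do not give its rates. The 7 members and the lists were chosen with earlier results of these data known. Other genes of the list were named as the 4 with the largest called change in each direction, members left out, at a mean log2 CPM of at least 1. Alternatives were RLE scaling, DESeq2 1.42.0, other filters, fits to the compared groups alone, no block and leaving out each replicate. Symbols and exon lengths came from GENCODE M21. One gene among those most alike to a member is not reported here.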

Additional observations from a re-analysis of the deposited data

Results flagged for a closer look

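Of 49 sets of 5 libraries (7 genes in 7 groups), 3 held a library far from the other 4, where chance gives about 1 in 20. Slc16a3 at pH 7 + IL-2 measured 20.7 CPM in replicate 1 and 77.2 to 82.2 CPM in the others. Hvcn1 at pH 6.6 measured 33.8 CPM in replicate 1 against 23.6 to 26.5 CPM, and at pH 7.4 + IL-2 it measured 50.5 CPM against 22.3 to 29.2 CPM. Replicate 1 had the highest Hvcn1 level in all 7 groups. Slc16a3 in replicate 1 was the highest of the group at 0 h (332 CPM) and the lowest at pH 7.4 + IL-2 (26.6 CPM), where Bsg was lowest in the same replicate (221 CPM).

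For 6 of the 7 genes the interaction term of pH 6.6 and IL-2 passed the threshold, where 67.0% of all tested genes were called. The responses to acid differed by -1.58 for Slc16a1, -3.42 for Slc16a3, -1.13 for Slc16a6, -1.40 for Bsg, 0.50 for Slc4a7 and 0.75 for Hvcn1 (log2 scale). The call of Slc4a7 was lost without replicates 2, 3, 4 or 5 in turn and with no filter.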

How the results depend on the processing

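Over 7 genes and 14 contrasts, 98 log2 fold changes were recomputed under 11 alternatives, and 1021 of 1078 values kept their direction and their side of the threshold, while 27 lost a call and 18 gained one. No difference past the threshold reversed. The 12 reversals were of values near 0. With 1 replicate left out, Hvcn1 ranged from -0.0598 to 0.135 at pH 6.6 against pH 7.4 with IL-2, from -0.0518 to 0.0178 at pH 7 against pH 7.4 with IL-2, and from -0.0471 to 0.187 at pH 6.6 against pH 7 with IL-2. Bsg ranged from -0.0442 to 0.00273 at pH 7 against pH 7.4 without IL-2, and Slc4a2 from -0.0177 to 0.119 for IL-2 at pH 7.4 and from -0.192 to 0.0182 for pH 7.4 + IL-2 against 0 h. Hvcn1 at pH 7 against pH 7.4 with IL-2 was 0.000607 with no filter, 0.00353 with 10 counts in every library (the strict filter) and 0.0218 with the compared groups alone.

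Counts moved among others at pH 7 against pH 7.4 and for IL-2 at pH 6.6. The calls that changed there included those of Slc16a3 (-1.10 ± 0.34 at pH 7 with IL-2 and 1.04 ± 0.39 for IL-2 at pH 6.6). Fitting the compared groups alone called 1 of the 7 genes (Slc16a6) at pH 7 against pH 7.4 without IL-2 and 6 for IL-2 at pH 6.6, where leaving out 1 replicate gave 1 to 4. Members called at pH 7 with IL-2 ranged from 1 to 3 with 1 replicate left out. In the list of acid-base genes that comparison gave 19 with the compared groups alone, 5 without the replicate block and 4 to 11 with 1 replicate left out. At pH 7 without IL-2 the list gave 5 with the groups alone, and 1 each with the strict filter and without the replicate block, and 1 to 3 with 1 replicate left out. For pH 7.4 + IL-2 against 0 h the strict filter left 15 of 23. That filter tested 10940 genes instead of 13819, and lost calls were not told apart from list genes no longer tested. Leaving out the replicate block changed no call of a member, with -2.72 for Slc16a1 and -3.42 for Slc16a3 at pH 6.6 against pH 7.4 with IL-2. Over all genes, the block raised the calls at pH 7 with IL-2 from 1660 to 2623 and without IL-2 from 56 to 232, and the compared groups alone gave 4397, 926 and, for IL-2 at pH 6.6, 5494 against 3278. Without replicates 2 or 3 the calls at pH 7 were 1343 and 1323 with IL-2 and 42 and 91 without. The causes were not tested. The intervals of Slc16a3 were the widest of the 7 genes both with and without IL-2, in a fit of all groups together. Its libraries measured 5.30 to 8.06 CPM without IL-2 and 26.6 to 227 CPM at pH 7.4 + IL-2.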
